A study of Mus musculus with 2 samples.

Results

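Isolated peaks are the short, low regions of a KLF4 chromatin immunoprecipitation sequencing (ChIP-seq) list that lay far from every other region in it. They were the autosomal intervals, on chromosomes 1 to 19, with a gap of more than 250 kb to both neighbouring intervals, a width under 2500 bp and a height under 25. The first and last interval of each chromosome was left out because it has a neighbour on one side only. Of the 8148 listed peaks, 8069 were autosomal and 543 met the rule, which is 6.66% of the list. The height is the authors' own whole-number score for the summit of each peak, on a scale that is named nowhere. The regions were selected on their gaps, widths and heights, so those values are given below as a description, with no test.

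The series profiled bone marrow of mice in which NOTCH1 had induced a T cell leukaemia (T-ALL). Cells positive for GFP, CD4 and CD8 were sorted 4 weeks after transplantation. The list comes from 1 library made with an antibody to KLF4, and an input library, made without antibody, was not analysed here. The ChIP library carries the label KLF-4 KO and the input library the label Normal, while both give the same strain, Klf4flox/flox vav-Cre on C57BL/6. Vav-Cre is a recombinase active in blood cells, so it deletes floxed Klf4 throughout that system and not in T cells alone. The labels do not settle whether the antibody had its target in these cells, and the regions are therefore called listed peaks and not KLF4 binding sites. A peak list holds no expression by which the sorted cells could be checked. With 1 library and no replicate, no comparison between conditions was possible, and the comparisons are between regions of the same list.

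KLF4 belongs to the Krüppel-like family of zinc finger proteins, which bind GC-rich DNA at promoters and enhancers. In T cells it is known as a brake on proliferation that is lowered when a resting cell is activated. Regions enriched for such a factor tend to crowd where genes are dense, because promoters lie close together there. All coordinates below follow mm9, which the submitters' processing notes list. Neither a genome sequence nor gene models of mm9 were used, so no sequence is shown and no gene, exon or promoter was assigned to a peak.

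Isolation was the far end of a wide spread of distances between neighbours. Over the 8031 autosomal peaks with a neighbour on both sides, the gap to the nearer one had a median of 22.7 kb, with a 10th percentile of 0.309 kb and a 90th percentile of 188 kb. The limit of 250 kb therefore cut through the upper tail of one continuous distribution and not through a trough. The isolated peaks had a median of 457 kb to the nearer neighbour, with quartiles of 315 and 745 kb. Their farther neighbour lay at a median of 1285 kb. Both gaps exceeded 500 kb in 246 of the 543 (45.3%), 1 Mb in 90 (16.6%), 2 Mb in 19 (3.50%) and 3 Mb in 5 (0.921%).

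**Figure D1:**
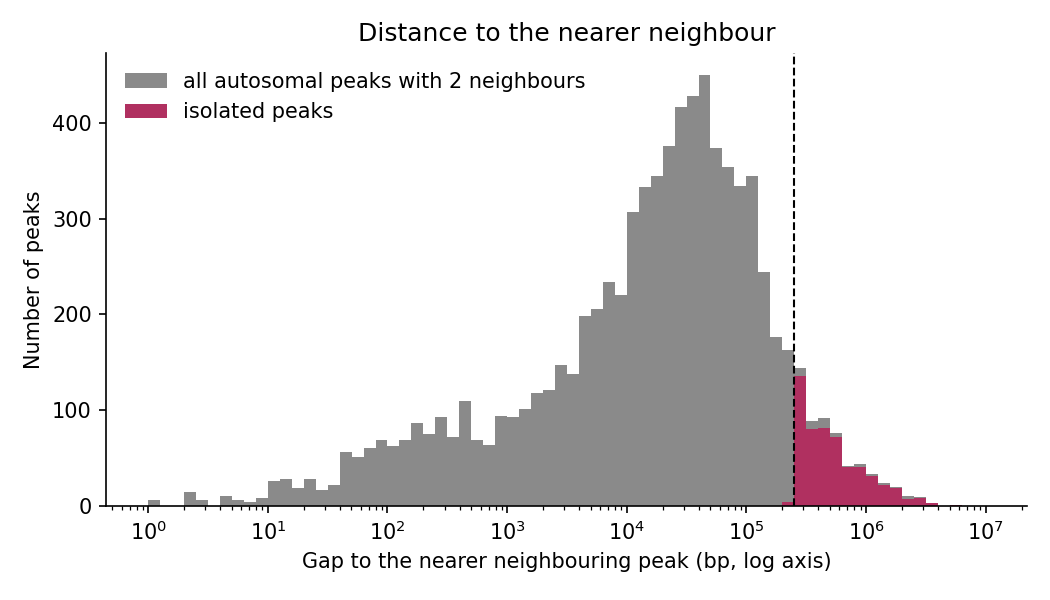
Histogram of the gap to the nearer neighbouring peak (bp, log axis) for the 8031 autosomal peaks with a neighbour on each side (grey) and for the 543 isolated peaks (red); the dashed line marks the limit of 250 kb. The counts fall steadily across the limit, and the isolated peaks make up nearly the whole distribution to its right.

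The most isolated region of the list lay on chromosome 16 at 70314079 to 70315072. It was 994 bp wide, had a height of 20, and was separated from its neighbours by 5462 kb on one side and 5451 kb on the other. No other listed peak had its summit within 5 Mb, which held for 1 of the 501 isolated peaks at least 5 Mb from both ends of the listed span of their chromosome. Next in order was a peak on chromosome 3, from 75360181 to 75361552, which reached 13 in height over 1372 bp and had gaps of 5834 and 3728 kb. On chromosome 13, the peak at 85427735 to 85429291 had a height of 16 over 1557 bp, and its gaps were 3504 and 4799 kb. Chromosome 8 held a peak at 63461186 to 63462971 that was 1786 bp wide, reached 18 in height and had gaps of 3328 and 3749 kb. The median height of the autosomal list was 15, and 3 of these 4 peaks were above it.

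The fifth and sixth most isolated regions had a taller neighbour that was itself far from other peaks. On chromosome 6, the peak spanning 18798000 to 18799037 reached 17 in height, with gaps of 4976 and 3100 kb, and the peak after it had a height of 26. On chromosome 2, the one spanning 139892003 to 139893013 reached 15, with gaps of 3174 and 2834 kb, and the peak before it had a height of 25. Those 2 neighbours met the gap limit too and were left out by the height limit alone.

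**Figure D2:**
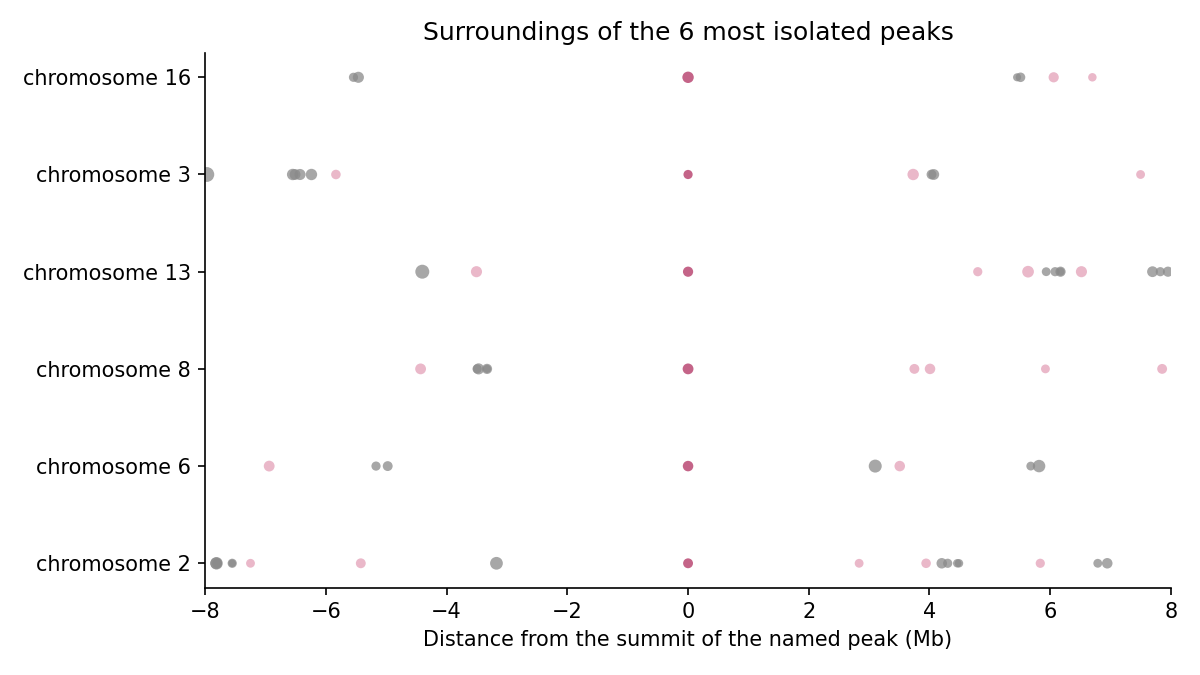
Listed peaks within 8 Mb of the 6 most isolated peaks, one row each, plotted by distance from the summit of the named peak (Mb). The area of a point scales with peak height; dark red is the named peak, light red another isolated peak and grey any other peak. The peak on chromosome 16 has empty stretches of more than 5 Mb to both sides, and 4 of the 6 peaks have another isolated peak as an immediate neighbour.

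Both limits on size were part of the rule, so heights and widths are set side by side here without a test. Isolated peaks had heights from 9 to 24, with a median of 15 and quartiles of 13 and 17. The 6482 peaks under the same width and height limits that had a neighbour within 250 kb, called near-neighbour peaks below, had the same median of 15, with quartiles of 12 and 18. A height of 20 or more was reached by 76 isolated peaks (14.0%) and by 974 near-neighbour peaks (15.03%). At the lower end, 68 isolated peaks (12.5%) and 984 near-neighbour peaks (15.2%) had a height of 11 or less.

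Among the isolated peaks themselves, the median height was 15 in the 297 peaks with a nearer gap of 250 to 500 kb, 14.5 in the 156 with 500 kb to 1 Mb and 15 in the 90 above 1 Mb. Across the 543 peaks, which share 1 library, height and nearer gap had a Spearman rho of -0.05. Under the same size limits, the most crowded peaks were the lowest. The 1020 peaks with a neighbour within 1 kb had a median height of 13 and the 1308 with one at 1 to 10 kb a median of 14. Intervals this close can be pieces of one enriched region, which was not tested. Without size limits, the median height was 14 within 1 kb and 15 at 1 to 10 kb. It was also 15 at 250 to 500 kb and at 500 kb to 1 Mb, and 15.5 above 1 Mb.

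**Figure D3:**
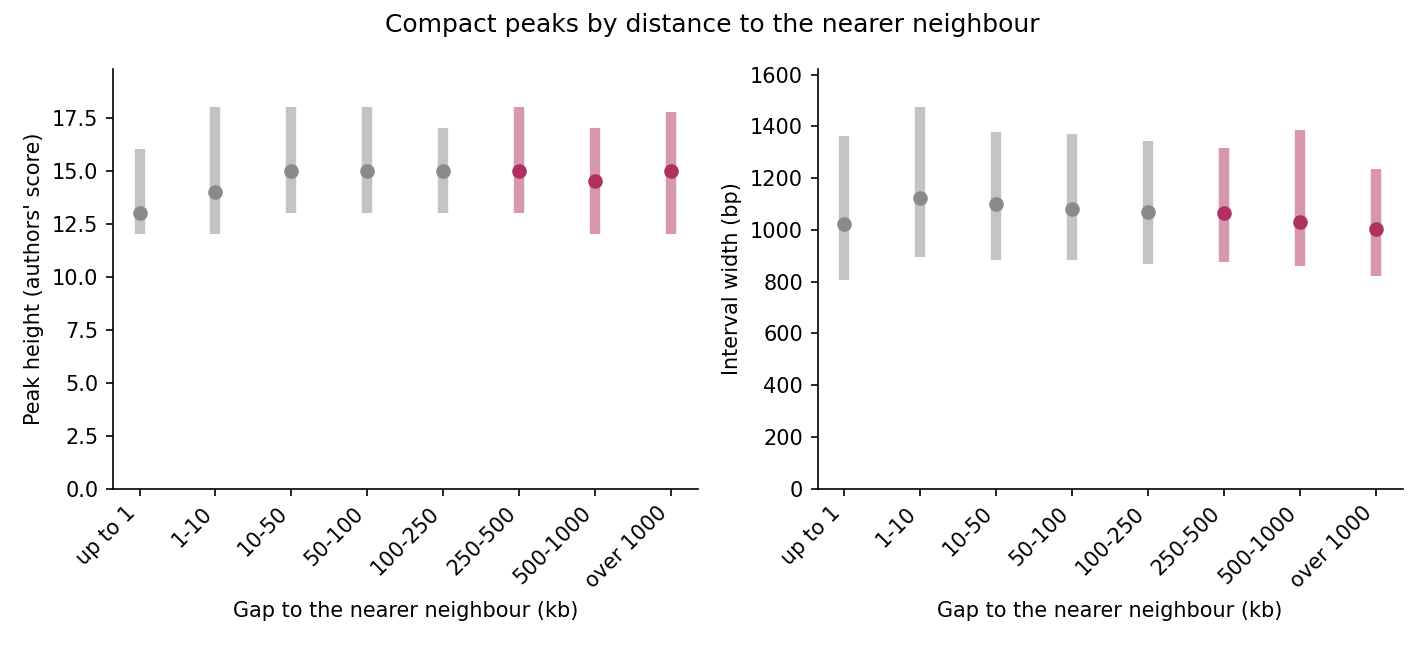
Height (authors' score, left) and interval width (bp, right) of peaks under 2500 bp and under height 25, by the gap to the nearer neighbour (kb). Points are medians and bars run from the lower to the upper quartile; red marks the isolated peaks. Median heights rise from 13 in the closest class to 15 at 10 to 50 kb and stay between 14.5 and 15 in the 3 isolated classes.

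Width was modest and followed height. Isolated peaks were 476 to 2498 bp wide, with a median of 1045 bp and quartiles of 868 and 1320 bp, against a median of 1085 bp for near-neighbour peaks. Widths under 1 kb were found in 237 isolated peaks (43.6%) and 2609 near-neighbour peaks (40.2%). The 127 isolated peaks of height 12 or less had a median width of 860 bp, the 340 of height 13 to 19 one of 1080.5 bp, and the 76 of height 20 or more one of 1319.5 bp. The Spearman rho between height and width was 0.50 over the 543 isolated peaks and 0.44 over the near-neighbour peaks. All the isolated peaks together covered 611 kb, or 5.73% of the bases in autosomal intervals.

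The tallest isolated peaks had a height of 24, a level that the limit fixed and that 8 peaks shared. The one with the longest nearer gap lay on chromosome 9 at 26837400 to 26838861, was 1462 bp wide and had gaps of 1776 and 3396 kb. A peak on chromosome 5 at 52580787 to 52582336 had 3817 kb of empty sequence before it and 592 kb after it. Chromosome 13 held 2 of them, at 30076385 to 30078397 (2013 bp) and at 105606416 to 105607718 (1303 bp), the latter followed by a gap of 3071 kb. Chromosome 9 held another pair, at 48302621 to 48304258 and at 95411872 to 95413004, so 3 of these 6 were on that chromosome. Their immediate neighbours had heights of 10 to 34, and 11 of the 12 neighbours were lower than 24. Heights of all autosomal peaks had an upper quartile of 19 and a 90th percentile of 24, so most listed peaks were lower than 24 too.

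The widest isolated peak, of 2498 bp, was on chromosome 11 from 105041782 to 105044279 and reached 21 in height. It stood in a gap of a populated stretch, because 10 other peaks had summits within 1 Mb and 111 within 5 Mb. The next were on chromosome 12 at 53703841 to 53706260 (2420 bp, height 18), chromosome 5 at 97425605 to 97428015 (2411 bp, height 18) and chromosome 19 at 28084743 to 28087149 (2407 bp, height 20). The summit of the peak on chromosome 5 lay 21.0% of the width from its lower coordinate and that of the peak on chromosome 12 lay at 27.1%. Both were off-centre, while the summit on chromosome 19 was near the middle at 47.6%.

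The regions nearest to each limit of the rule were as follows. Just inside the gap limit were 2 peaks on chromosome 8 that neighbour each other, at 18594774 to 18595753 and 18845762 to 18847181, with 250.008 kb between them. Just outside were 2 peaks on chromosome 2, at 37558166 to 37559600 with a nearer gap of 249.983 kb and at 173901323 to 173903021 with 249.69 kb. For width, the peaks of 2498 and 2420 bp were inside, and a peak of 2514 bp on chromosome 10 at 53793504 and one of 2707 bp on chromosome 19 at 12868853 were outside. For height, peaks of 24 were inside, and peaks of 25 on chromosome 10 at 105277888 (gaps of 6551 and 2319 kb) and on chromosome 2 at 136716502 (gaps of 2246 and 3174 kb) were outside.

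Isolation did not exclude height or width. In all, 591 autosomal peaks had both gaps above 250 kb, and 48 of them (8.12%) were set aside, 35 for height alone, 5 for width alone and 8 for both. Without size limits, a height of 25 or more was found in 26 of 325 peaks with a nearer gap of 250 to 500 kb (8.0%), 8 of 166 with 500 kb to 1 Mb (4.82%) and 9 of 100 above 1 Mb (9.0%). The share was 9.02% (110 of 1220) within 1 kb, 11.9% (187 of 1576) at 1 to 10 kb and 9.27% (246 of 2655) at 10 to 50 kb. It was 9.01% at 50 to 100 kb and 7.90% at 100 to 250 kb. A width of 2500 bp or more was found in 147 of 1220 peaks with a neighbour within 1 kb (12.05%). That share was 8.12% at 1 to 10 kb, 3.35% at 10 to 50 kb, 1.41% at 50 to 100 kb and 1.73% at 100 to 250 kb. Beyond the gap limit it was 1.85% (6 of 325) at 250 to 500 kb, 3.01% (5 of 166) at 500 kb to 1 Mb and 2% (2 of 100) above 1 Mb. Low shares of wide peaks were thus also found at 50 to 250 kb.

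Most summits of isolated peaks lay near the middle of their intervals. The rule did not use the summit position, but it limited width, on which centring depended, as given below. The summit position had a median of 49.0% of the width from the lower coordinate, with quartiles of 40.2 and 57.9%, against 48.7% (39.3 and 59.1%) for near-neighbour peaks. The part of the interval from 33.3 to 66.7% of its width, called the central part below, held the summit of 432 isolated peaks (79.6%, 95% exact binomial interval 75.9 to 82.9%), of 4795 near-neighbour peaks (74.0%, 72.9 to 75.04%), and of 1640 of the 2328 among the latter with a neighbour within 10 kb (70.4%, 68.5 to 72.3%). The median distance of the summit from the interval's centre was 85, 104 and 110.5 bp in the same order. Summits lay on the side of the nearer neighbour in 271 of 543 isolated peaks (49.9%), 51.4% of near-neighbour peaks and 53.0% of those with a neighbour within 10 kb. Regions are not replicates, so these shares are a description of the list and no test was made.

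Centring depended on width. In intervals under 1 kb, the central part held the summit of 213 of 237 isolated peaks (89.9%, 85.3 to 93.4%), 84.0% of near-neighbour peaks (82.5 to 85.4%) and 81.1% of those with a neighbour within 10 kb (78.5 to 83.5%). From 1000 to below 1500 bp the shares were 77.1% (71.1 to 82.4%), 72.6% (70.8 to 74.3%) and 67.6% (64.3 to 70.8%). From 1500 to below 2500 bp they were 55.7% (44 of 79, 44.1 to 66.9%), 55.7% and 54.5%. The share of isolated peaks was above that of near-neighbour peaks under 1 kb and from 1000 to below 1500 bp. From 1500 to below 2500 bp both were 55.7%. Near-neighbour peaks include those with a neighbour within 10 kb, whose shares were lower in each width class. Shares for the rest of the near-neighbour peaks were not worked out. The higher share is therefore not shown to be particular to isolated peaks. The ranges in brackets cover counting error only. Regions are not replicates, so no test between these sets was made. Most summits were multiples of 32 bp, 391 of the 543 (72.0%) and 74.3% of near-neighbour peaks, and another 21.4 and 19.3% were 16 bp off that grid. A shift of 1 grid step is thus a sizeable part of the median distances of 85 and 104 bp.

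**Figure D4:**
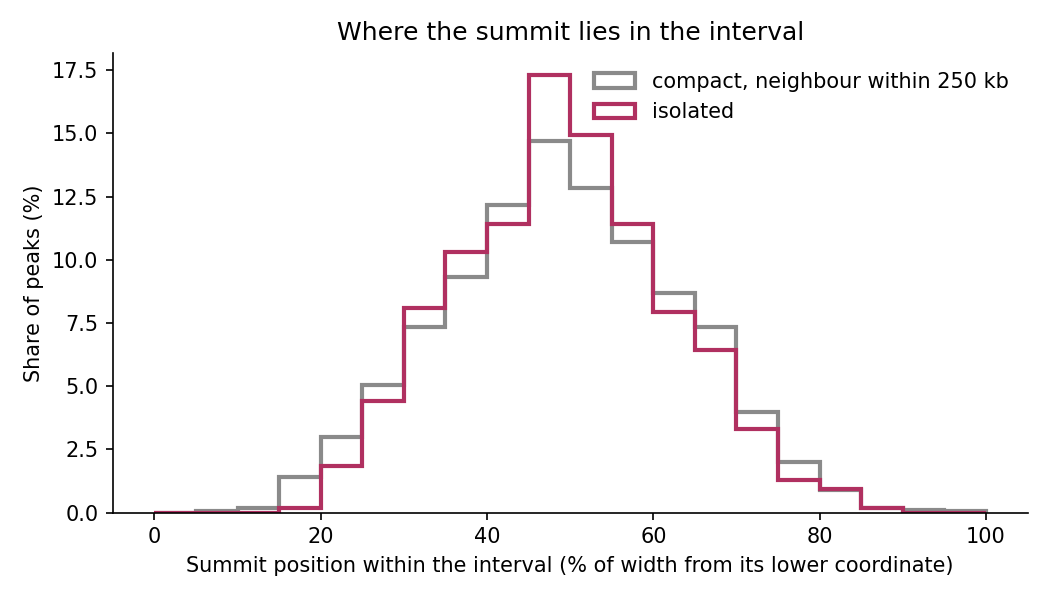
Share of peaks (%) by position of the summit within the interval, in steps of 5% of the width from the lower coordinate, for the 543 isolated peaks (red) and the 6482 near-neighbour peaks (grey). Both distributions peak at the middle, and the isolated peaks have a higher share there, with 79.6% against 74.0% in the central part. The grey set includes 2328 peaks with a neighbour within 10 kb, for which that share was 70.4%.

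Isolated peaks were found on all 19 autosomes. Their density was 0.228 per Mb of span (95% exact Poisson interval 0.210 to 0.249), against 3.39 per Mb for all autosomal peaks. By chromosome it ran from 0.155 per Mb on chromosome 7 (23 peaks, 0.0982 to 0.232) to 0.344 on chromosome 19 (20 peaks, 0.210 to 0.532), a 2.22-fold range with overlapping intervals at its ends, which became 3.07-fold with a gap limit of 500 kb. The density of all listed peaks ranged 3.14-fold, from 2.20 per Mb on chromosome 14 to 6.92 on chromosome 11. Chromosome 11, the most densely listed, had 25 isolated peaks, or 0.211 per Mb (0.136 to 0.311), and chromosome 14, the most sparsely listed, had 23, or 0.202 per Mb (0.128 to 0.304). Each chromosome held 17 to 52 isolated peaks. The intervals cover counting error only, and no test between chromosomes was made.

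The share of a chromosome's peaks that was isolated differed more. It was highest on chromosome 3, with 43 of 345 peaks (12.5%, 9.17 to 16.4%), followed by chromosome 1 with 49 of 448 (10.9%, 8.20 to 14.2%). It was lowest on chromosome 11, with 25 of 820 (3.05%, 1.98 to 4.47%), and next lowest on chromosome 7, with 23 of 609 (3.78%, 2.41 to 5.61%). Across the 19 autosomes the Spearman rho with total peak density was -0.83 for the isolated share and -0.15 for the isolated density. The share has the total number of peaks as its denominator, so the first relation is partly built in. Median heights of isolated peaks lay between 13 (chromosome 16) and 16, and median widths between 952.5 bp (chromosome 18) and 1282 bp (chromosome 12).

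**Figure D5:**
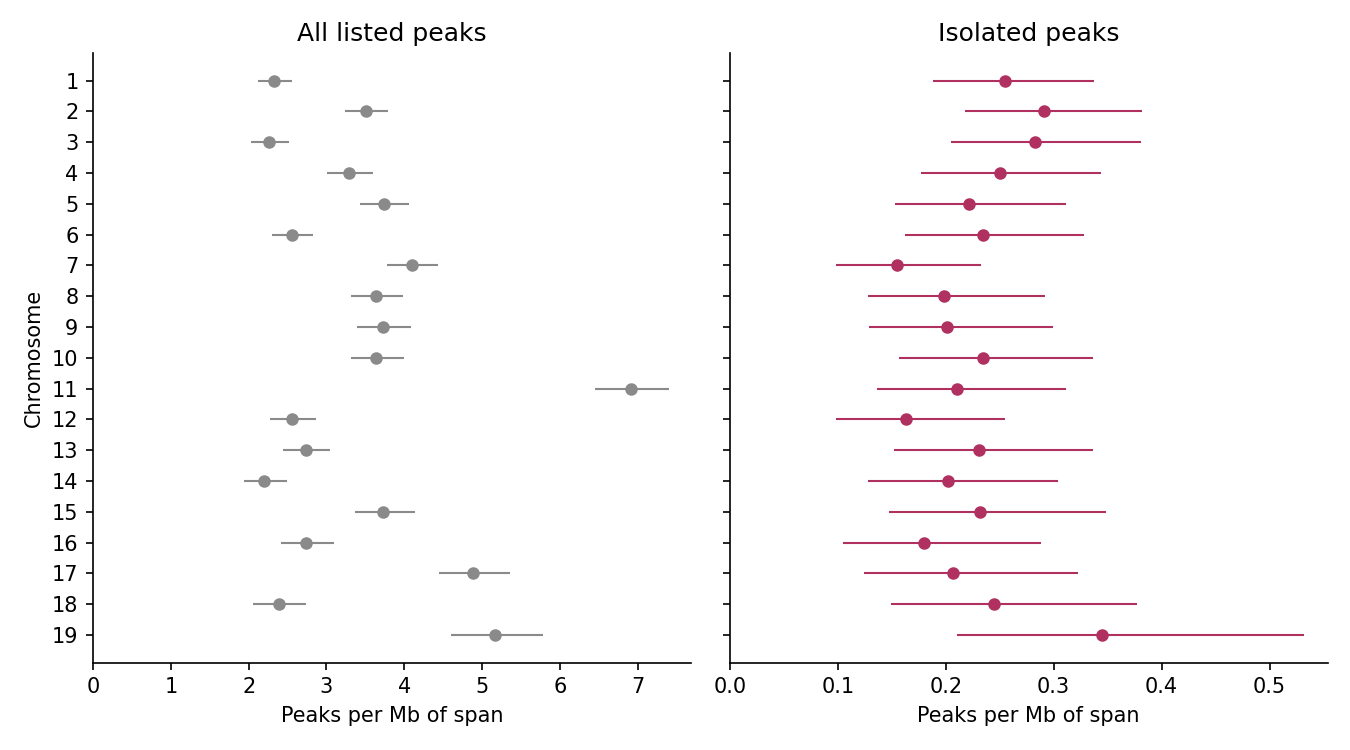
Listed peaks per Mb of listed span (first to last peak) of each autosome, for all listed peaks (left, grey) and isolated peaks (right, red), on separate linear scales; bars are 95% exact Poisson intervals, which cover counting error only. Chromosome 11 stands out on the left at 6.92 per Mb and lies inside the range of the other chromosomes on the right at 0.211 per Mb.

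The isolated peaks together with the gaps on both sides of them covered 1161 Mb, or 48.8% of the 2377 Mb of listed autosomal span. The gap limit guarantees at least 250 kb of empty sequence to each side, so part of this figure is set by the rule. The 2 gaps of a peak were often unequal. The longer was at least 2 times the shorter in 288 peaks (53.0%), at least 10 times in 38 (6.998%), and within 1.1 times of it in 39 (7.18%). The median ratio was 2.13. Over the 8031 autosomal peaks with a neighbour on both sides, the median nearer gap was 22.7 kb and the median farther gap 120 kb. For isolated peaks these medians were 457 and 1285 kb. Unequal gaps were thus not particular to isolated peaks, and the ratio was not worked out for other peaks.

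Isolated peaks often followed one another along the chromosome. Of the 543, 320 (58.9%, 54.7 to 63.1%) had another isolated peak as the next or previous peak, and 223 (41.1%) did not. Adjacent peaks enter this count together, so the interval treats as independent peaks that are not and does not measure the counting error. Counted as unbroken series of consecutive isolated peaks, there were 223 single peaks, 91 pairs, 28 series of 3, 8 of 4, 2 of 5 and 2 of 6. A peak bordering an isolated one shares its gap, so it meets the limit on one side from the start, and the share of 58.9% is not a measure of attraction. Among the 700 flanking peaks that were not isolated themselves, 695 had a neighbour on both sides. Of these, 111 (15.97%) had their own nearest neighbour within 10 kb and 663 (95.4%) within 250 kb. Of the 8031 autosomal peaks with a neighbour on both sides, 1220 had the nearer one within 1 kb and 1576 at 1 to 10 kb. A flanking peak has 1 gap above 250 kb from the start, so the lower share within 10 kb is partly built in.

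The longest series had 6 peaks. On chromosome 19, 6 isolated peaks lay between 14671526 and 23762584, a stretch of 9.09 Mb, with heights of 23, 15, 16, 19, 14 and 15 in order of position. On chromosome 8, another 6 lay between 63461186 and 71613279, over 8.15 Mb, with heights of 18, 15, 17, 12, 15 and 17. The first of these is the peak already given as the fourth most isolated. Series of 5 were found on chromosome 2 between 79095098 and 83565075, with heights of 10 to 16, and on chromosome 6 between 95067489 and 99046539, with heights of 11 to 17. Of the 8 series of 4, the one with the tallest peak lay on chromosome 11 between 35582637 and 43496275, with heights of 16, 23, 15 and 24. Heights in these series covered most of the range of isolated peaks, so peaks that followed one another were not of one height.

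Surroundings of isolated peaks ranged from empty to well populated. Among the 501 isolated peaks at least 5 Mb from both ends of the listed span, the number of other peaks with a summit within 1 Mb had a median of 3, with quartiles of 1 and 6. The 5750 near-neighbour peaks chosen in the same way had a median of 15, with quartiles of 7 and 27. Within 5 Mb the medians were 25 (quartiles 13 and 42) and 51 (30 and 80). The rule empties the inner 250 kb for isolated peaks, and a near-neighbour peak has at least 1 other there, so part of these differences is fixed by the selection. With summits within 250 kb left uncounted, a count added after seeing the data, the medians were 3 (1 and 6) and 9 (4 and 18) out to 1 Mb, and 25 (13 and 42) and 45 (26 and 70) out to 5 Mb. Gaps of neighbouring peaks are related, so these counts are not independent of the rule either, and no test was made. At least 30 other peaks lay within 5 Mb of 208 isolated peaks (41.5%, 37.2 to 46.0%) and of 75.4% of near-neighbour peaks. At the other end, 99 isolated peaks (19.8%, 16.4 to 23.5%) had 10 or fewer within 5 Mb, as did 3.50% of near-neighbour peaks. Isolated peaks close to each other share much of their surroundings, so these 2 intervals treat as independent counts that are not. No other peak lay within 1 Mb of 86 isolated peaks (17.2%) or within 2 Mb of 19 (3.79%). Among near-neighbour peaks, 293 (5.10%) had none between 250 kb and 1 Mb. The highest number within 5 Mb of an isolated peak was 155.

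In windows of 10 Mb the isolated peaks were scattered. Of the 253 windows with at least 1 listed peak, 32 held no isolated peak, 63 held 1, 67 held 2, 45 held 3 and 46 held 4 or more. The most were 8, on chromosome 6 between 90 and 100 Mb, where 22 peaks were listed in all, and 7, on chromosome 15 between 30 and 40 Mb, of 24. Windows with 6 were found on chromosomes 1, 2, 5 and 14. A window on chromosome 8 between 80 and 90 Mb held 72 listed peaks and 5 isolated ones. Those 5 had 4, 4, 4, 2 and 34 other peaks within 1 Mb, so most of them lay in a sparse part of the window. The window with the most listed peaks, 141 on chromosome 19 between 0 and 10 Mb, held no isolated peak. One with 112, on chromosome 11 between 100 and 110 Mb, held 4.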

How the data were processed

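One deposited file, from the KLF4 ChIP library, was used. Per the submitters' processing notes, BWA 0.6.1, SICER 1.1 and MACS were used, with no role given for either of the last 2, and the builds hg19 and mm9 are named. No calling threshold, read filter, use of the input or depth was found, each being not given in the sources used here. The authors deposited, per the file headers, a summit track and an interval track. The summit score, called the height, is deposited as whole numbers from 8 upwards on an unnamed scale. The other deposited columns are positions in base pairs, where interval starts were converted to count from 1. The tracks were joined by row order, and 8148 of 8148 summits lay inside their interval. On chromosome 7, 37 peaks lay beyond the last gene of a GRCm38.p6 table, by up to 6.78 Mb, so the positions are not of that build.

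A gap was the number of bases between 2 adjacent intervals. Densities used the span from first to last peak. The rule, the regions and the comparisons were chosen with earlier results of these data known. Named are the 6 most isolated, 6 tallest and 4 widest isolated peaks, ties going to the longer nearer gap, and 2 peaks on each side of each limit. The other regions, the series of consecutive peaks, the windows and the width classes were chosen after values were seen. The selection rule and the nearer gap were tested on simulated data with planted isolated peaks. The other calculations were not tested in this way. Descriptions of start sites, GC content, motifs, repeats and gene lists were intended and not made, for want of mm9 sequence and gene models. Calculations ran in Python 3.11.15 (scipy 1.17.1, numpy and pandas).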

Additional observations from a re-analysis of the deposited data

How the results depend on the processing

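The number of isolated peaks depended on the gap limit, with 1381 at 100 kb and 246 at 500 kb in place of 543. It was 575 when peaks under the median height of 15 were removed before gaps were measured, and 289 of the 543 (53.2%) were shared. That filter takes out every isolated peak under 15 in height, so at most 291 of the 543 could be shared. Dropping the height limit gave 578, dropping the width limit 548, merging peaks within 1 kb first 561, and keeping first and last intervals 554. The median summit position stayed between 48.5 and 49.3% under these 7 alternatives, of which those other than the gap limits were added after seeing the data, as were all that follow. All 543 peaks were kept at 100 kb, without either size limit, after merging and with first and last intervals. The 246 at 500 kb were all among the 543. Most alternatives thus reuse largely the same peaks, which left the median little room to move. Position is counted from the lower coordinate, so summits off-centre equally often to either side would also give a median near the middle. The share of summits in the central part was not recalculated under the alternatives. The ratio of the highest to the lowest autosomal density of isolated peaks ran from 1.65 (gap limit of 100 kb) to 3.07 (500 kb). The share next to another isolated peak was 75.5% at 100 kb, 44.7% at 500 kb and 68.0% once peaks under the median height were removed. No paired analysis was possible because a single library was used, which also leaves no replicate to omit. The unknown depth and calling threshold limit isolation itself: a region below the threshold is not listed, so a gap is a stretch without a listed peak and not one shown to lack signal. Settings for start sites, GC content, motifs and repeats were not tried, for want of mm9 sequence and gene models.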

Other observations

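Chromosome X was outside the rule and, by the same limits, held 28 isolated peaks among its 78 (35.9%, 95% exact binomial interval 25.3 to 47.6%). On the autosomes the share was 543 of 8069 (6.73%, 6.19 to 7.30%). Either share has the number of listed peaks as its denominator. The 28 on X were 0.176 per Mb of span (95% exact Poisson interval 0.117 to 0.254), against 0.228 (0.210 to 0.249) on the autosomes. These 28 had a median height of 12, from 9 to 19, a median width of 718 bp and a median nearer gap of 520 kb. Heights and widths over all 78 X peaks were not worked out, so these medians are not set against the rest of X. Another 2 X peaks met the gap limit and were left out by height or width. Chromosome Y had 1 listed peak and no gap.

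The 3 tallest autosomal peaks that met the gap limit but not the limits on size had heights of 278 (chromosome 17, 39979510 to 39985903), 147 (chromosome 3, 5860487 to 5860943) and 53 (chromosome 2, 98506253 to 98507877). Their nearer gaps were 1085, 284 and 2883 kb, and their widths were 6394, 457 and 1625 bp. The sequence under them was not examined.

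Compact peaks with only one long gap were more numerous than the isolated ones. Of 7025 peaks within the size limits and with a neighbour on both sides, 1878 (26.7%) had exactly one gap above 250 kb.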
